A study of Homo sapiens with 24 samples.

Results

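The genes described here encode the human proteasome: its core particle, its regulatory particle, the activators that can replace the regulatory particle, and the chaperones that help assemble the core. They were chosen by symbol, as the PSMA, PSMB, PSMC, PSMD, PSME and PSMG rows of the table with a mean normalised count of at least 50 over all 24 libraries, leaving out the immunoproteasome subunits PSMB8, PSMB9 and PSMB10. Of the 57820 rows of the table, 43 carried such a name and 41 passed the minimum: 13 core genes, 20 regulatory particle genes, 4 activators and 4 core assembly chaperones. The lowest mean inside the minimum was that of PSMG4, at 291.4, and the highest that of PSMD2, at 17740. Outside it lay PSMA8, listed at 0 in all 24 libraries, and PSMB11, with a mean of 0.08691 and a highest library of 1.219. PSMB3 was not analysed here. The minimum used only the mean over all libraries and no comparison between groups.

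RNA was sequenced from RBE and SNU1079, both IDH1-mutant, SULT1A1-expressing cholangiocarcinoma cell lines. The study asked what the sulfonation-dependent compound YC-1 does to their transcripts, and each line was treated with YC-1 or with its vehicle DMSO. The 8 groups of 3 libraries each were RBE with YC-1 for 6 h, RBE with DMSO for 6 h, RBE with YC-1 for 16 h, RBE with DMSO for 16 h, and the same 4 groups of SNU1079. The labels give no dose, and their separate time entry goes with the treatment, DMSO samples all carrying 16 h and YC-1 samples all 6 h, so the times were taken from the sample titles, whose 8 groups of 3 match the design text. Every group is a single line, so a difference between RBE and SNU1079 is a difference between 2 lines and not between kinds of tumour.

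The proteasome degrades proteins that carry a ubiquitin chain. Its core is a barrel of stacked rings, with alpha subunits (PSMA) at the ends that gate the entry and beta subunits (PSMB) within, of which PSMB5, PSMB6 and PSMB7 are the proteases. The regulatory particle caps the barrel: a ring of ATPases (PSMC) unfolds the substrate, and the PSMD subunits bind ubiquitin, remove it and hold the cap together. When proteasome activity falls short, the transcription factor NFE2L1 is known to raise the transcription of the subunit genes together.

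The deposited values are read counts normalised by the authors, and sums per library ran from 20430000 to 27010000 in YC-1 libraries and from 19010000 to 21580000 in DMSO libraries. Depth is unknown. Mitochondrially encoded transcripts took 15.4 to 17% of the sum in RBE after 16 h of YC-1, against 7.67 to 8.18% with DMSO, and 18.1, 3.38 and 22.1% in the 3 SNU1079 libraries after 16 h of YC-1, against 6.02 to 8.5% with DMSO. Replicates 1 of SNU1079 YC-1 at 6 h and of SNU1079 DMSO at 16 h, and replicate 3 of SNU1079 YC-1 at 16 h, lay farthest from their own group, with replicate 2 of SNU1079 YC-1 at 16 h almost as far. The biliary markers KRT7, KRT19, SOX9 and EPCAM were present in every library, the lowest at 335, whereas CFTR, also on that list, did not exceed 7.095. Of the other lists, DCN was at 0 in every library, and PTPRC did not exceed 6.731, CD3E 1.099 and MS4A1 1.077. COL1A1 reached 3808, CPS1 823.6 and CD14 62.61. The summed leukocyte list was 89.17 to 102.6 in RBE after 16 h of YC-1, against 49.09 to 52.37 with DMSO, and 42.06 to 62.61 in SNU1079, against 0.8761 to 2.578. The summed biliary list was 49670 to 56820 in RBE after 16 h of YC-1, against 31150 to 35280, and 55010 to 98150 in SNU1079, against 46000 to 65040. KRT7 made most of these sums, and the list was divided in RBE at 16 h, with 1 of 4 tested called higher and 2 lower. There KRT19 was at 5609 to 6768 with YC-1, against 7521 to 9414, and SOX9 at 994.1 to 1054, against 1363 to 1509. In SNU1079 at 16 h 3 were called higher and 0 lower. The part of these lists in the results below was not tested. In RNA from whole cultures, fewer cells of a kind and less RNA per cell cannot be told apart.

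After 16 h of YC-1 the proteasome genes of RBE that passed the test mostly rose and those of SNU1079 split almost evenly. Held against the ribosomal protein genes, most of those called fell in both lines, as did most of all genes called. In both lines the genes of a single complex went opposite ways. At 6 h few were called with all 24 libraries in the fit, and in RBE more were called with only the 12 libraries of the line. Calls come from limma on log2(normalised count + 1), fitted across the 17860 genes tested in all 24 libraries, with Benjamini-Hochberg adjusted p under 0.05; all 41 members passed the filter on low values. In RBE at 6 h, 5 of 41 were higher and 1 lower, where 24% of all genes tested were called, 11.6% higher and 12.4% lower. In RBE at 16 h, 22 were higher and 5 lower, where 53.9% of all genes were called, 27.3% higher and 26.6% lower.

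In SNU1079 at 6 h, 3 were higher and 4 lower, where 28.2% of all genes were called, 14% higher and 14.2% lower. In SNU1079 at 16 h, 14 were higher and 15 lower, where 54.5% of all genes were called, 28.7% higher and 25.8% lower. In this fit the share of members called was therefore below that of all genes at 6 h, 14.6% in RBE and 17.1% in SNU1079. At 16 h it was above, 65.9% and 70.7%. The median log2 fold change of the 41 members was 0.38 in RBE at 16 h, against 0.02 for all genes tested, and 0.08 in SNU1079, against 0.06. At 6 h the medians of the members were 0.04 in both lines. Counted by libraries alone, all 3 YC-1 libraries lay above all 3 DMSO libraries for 11 members and below them for 11 in RBE at 6 h (23.5% and 24.6% of all genes), and for 30 and 9 at 16 h (35.6% and 33.5%). In SNU1079 these counts were 5 and 6 at 6 h (20.1% and 20.2% of all genes) and 13 and 10 at 16 h (26.8% and 24.5%).

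These directions depend on the scale. With the ribosomal protein genes held level across libraries, the median of all genes moved by -0.79 in RBE at 16 h and by -0.43 in SNU1079. The members then split 2 higher and 21 lower in RBE, where all genes split 1117 higher and 9572 lower. In SNU1079 the members split 3 and 23, where all genes split 2397 and 6929. The members still higher were PSMC4 and PSME2 in RBE, and PSMC4, PSMD7 and PSME2 in SNU1079. The downward shift means that the ribosomal protein genes themselves were higher with YC-1 at 16 h on the scale as deposited. Which scale is the right one was not tested. With equal sums per library the all-gene median moved by -0.30 and -0.32. The members then split 17 higher and 9 lower in RBE, where all genes split 2875 and 6484. In SNU1079 the members split 4 and 21, where all genes split 3025 and 6619. The differences among members that follow are not touched by such a shift, since it moves all genes of a library alike. Without the 3 SNU1079 libraries that lay farthest from their groups, the counts were 8 higher and 5 lower in RBE at 6 h, and 28 and 6 at 16 h, while SNU1079 had 7 and 3 at 6 h and 16 and 13 at 16 h. All libraries share the fit, and why the RBE counts moved was not tested.

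**Figure D1:**
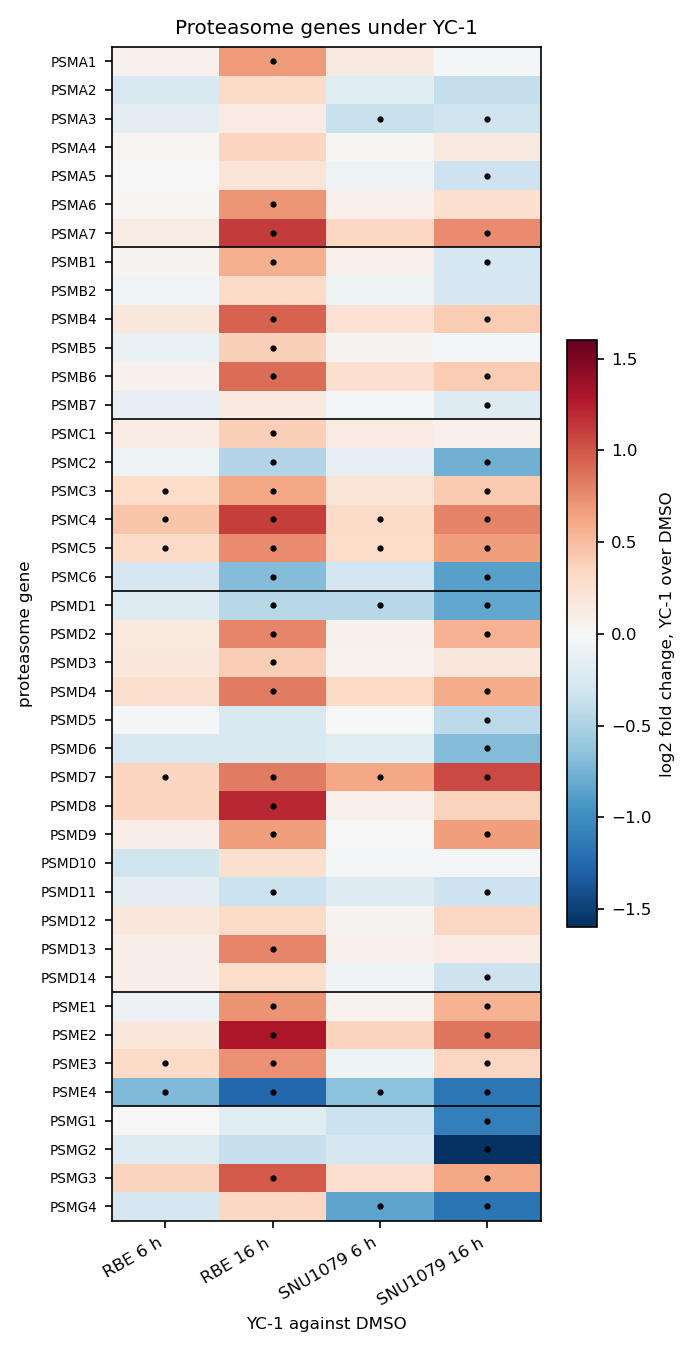
Log2 fold change of each of the 41 genes, YC-1 over DMSO, as colour (red higher, blue lower with YC-1), in RBE and SNU1079 at 6 h and 16 h; a dot marks an adjusted p under 0.05 and black lines part the PSMA, PSMB, PSMC, PSMD, PSME and PSMG genes. The RBE 16 h column holds 22 higher and 5 lower calls and the SNU1079 16 h column 14 and 15. With the ribosomal protein genes held level these become 2 and 21, and 3 and 23. All genes then split 1117 higher and 9572 lower in RBE, and 2397 and 6929 in SNU1079.

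Among the members, 4 genes passed the test in the same direction in all 4 comparisons. The ATPases PSMC4 and PSMC5 and the lid subunit PSMD7 were higher, and PSME4 was lower. Such genes were not counted over all genes tested, so whether 4 is many or few is not shown. PSMC4 had 3111, 3157 and 3165 normalised counts in RBE after 6 h of YC-1, against 2511, 2233 and 2240 with DMSO, and 4977, 4967 and 5506 after 16 h, against 2323, 2473 and 2352. SNU1079 had 4061, 3058 and 3415 after 6 h of YC-1, against 2741, 2694 and 3066 with DMSO, and 5496, 5233 and 4770 after 16 h, against 3195, 3108 and 2685. Every YC-1 library was above every DMSO library except in SNU1079 at 6 h, where the lowest YC-1 library lay just under the highest DMSO library. The log2 fold changes were 0.44 ± 0.10 (SE; adjusted p = 0.00235) and 1.11 ± 0.10 (adjusted p = 7.26e-09) in RBE at 6 h and 16 h. In SNU1079 they were 0.30 ± 0.10 (adjusted p = 0.0259) and 0.79 ± 0.10 (adjusted p = 9.7e-07); the 6 h call ended without the 3 libraries that lay apart (0.19, adjusted p = 0.0905). With the ribosomal protein genes held level PSMC4 kept its call in RBE at 6 h and 16 h, at 0.41 and 0.28, and in SNU1079 at 16 h, at 0.31, but not in SNU1079 at 6 h, at 0.10.

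PSMC5 sits in the same ATPase ring. It had 6605, 6456 and 6286 normalised counts in RBE after 6 h of YC-1, against 5317, 5329 and 5020 with DMSO, and 8750, 8708 and 8884 after 16 h, against 5083, 5039 and 5488. SNU1079 libraries had 5914, 5468 and 5599 after 6 h, against 4869, 4353 and 4653, and 8224, 9425 and 8091 after 16 h, against 5330, 5594 and 5213. The groups did not overlap in any of these comparisons. Its fold was 1.24 and 1.22 at 6 h and 1.69 and 1.59 at 16 h in RBE and SNU1079 (adjusted p = 0.00368, 0.00443, 2.4e-08 and 1.43e-07); held against the ribosomal protein genes, its RBE 16 h log2 change turned to -0.08.

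PSMD7 is the lid subunit that pairs with the deubiquitinase PSMD14. It had 3753, 4087 and 3921 normalised counts in RBE after 6 h of YC-1, against 3193, 3263 and 2873 with DMSO, and 5396, 5496 and 5691 after 16 h, against 3109, 2989 and 3218. In SNU1079 it had 2489, 2892 and 3018 after 6 h, against 1890, 1806 and 1757, and 3470, 4282 and 4326 after 16 h, against 1735, 2170 and 1882. Again no groups overlapped. The folds were 1.26 and 1.54 at 6 h and 1.78 and 2.08 at 16 h in RBE and SNU1079 (adjusted p = 0.016, 6.4e-05, 4.61e-07 and 1.68e-08), and held against the ribosomal protein genes the RBE 16 h log2 change was 0.00. Its partner PSMD14 did not follow: its log2 fold change was 0.29 in RBE at 16 h, which did not pass (adjusted p = 0.0721), and -0.33 in SNU1079, which did (adjusted p = 0.0392).

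PSME4 encodes PA200, a large activator that binds the core in place of the regulatory particle and is known for its part in DNA repair and histone turnover. It had 1705, 2004 and 2060 normalised counts in RBE after 6 h of YC-1, against 3364, 3063 and 2997 with DMSO, and 1244, 1300 and 1300 after 16 h, against 3087, 3072 and 3079. Those of SNU1079 had 1088, 1490 and 1606 after 6 h, against 2232, 2382 and 1939, and 944.3, 677.8 and 864.6 after 16 h, against 1277, 2306 and 2090. Every YC-1 library was below every DMSO library of its line and time. The log2 fold changes were -0.71 ± 0.17 and -1.26 ± 0.17 in RBE at 6 h and 16 h, and -0.66 ± 0.17 and -1.16 ± 0.17 in SNU1079 (adjusted p = 0.00437, 3.21e-06, 0.00644 and 9.92e-06). In RBE these held in all 14 alternatives to the processing.

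**Figure D2:**
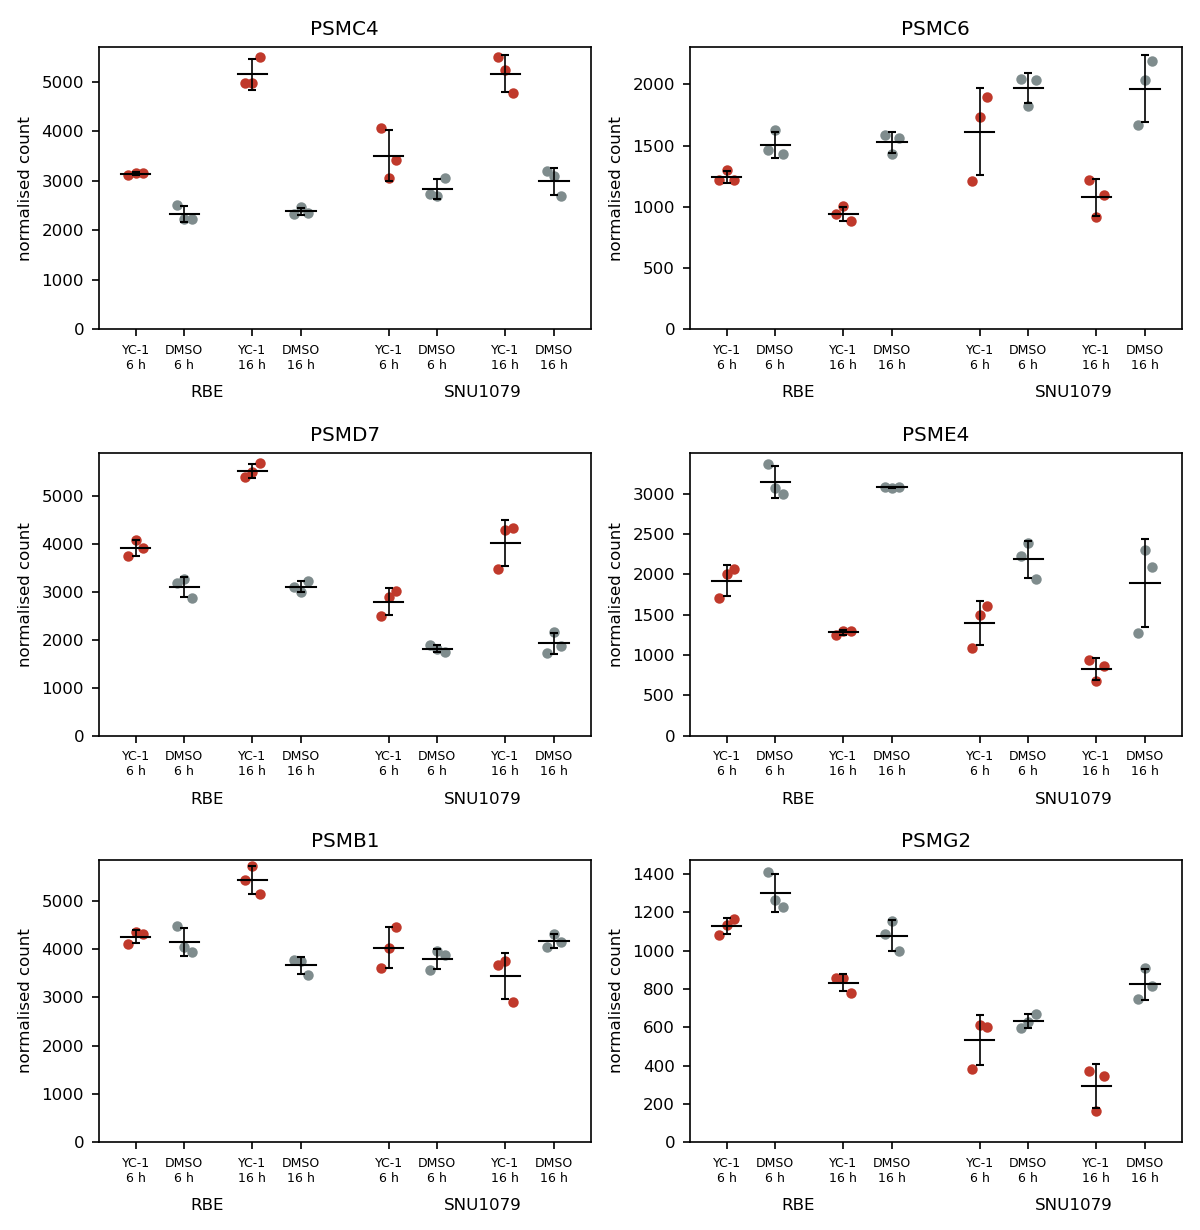
Normalised count (y axis, from 0) of PSMC4, PSMC6, PSMD7, PSME4, PSMB1 and PSMG2 in each library, YC-1 in red left of DMSO in grey for each line and time; the bar is the mean and the whiskers the SD of 3 libraries. PSMC4 and PSMC6, of the same ATPase ring, lie opposite ways at 16 h in both lines, with RBE libraries at 4967 or more and 1005 or less under YC-1, against 2473 or less and 1429 or more with DMSO, and PSMB1 is higher with YC-1 in RBE and lower in SNU1079 at 16 h; held against the ribosomal protein genes, the RBE value of PSMB1 turns to -0.27 and that of PSMD7 is 0.00.

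The stretch of 250 bases before the RefSeq start was available for 35 of the 41 genes (RefSeq, GRCh38.p14). It is shown for genes picked for opposite response. PSMC4 and PSMD7 were, with PSMC5 (not shown), higher in all 4 comparisons, and PSMC6 and PSME4 were lower at 16 h in both lines. Capitals mark a match, on either strand, to CCAAT, the core of the CCAAT box, or to TGACNNNGC, the core of the antioxidant response element to which NFE2L1 and NFE2L2 bind; no sequence shown holds both.
PSMC4, chr19:39970915-39971164, plus strand: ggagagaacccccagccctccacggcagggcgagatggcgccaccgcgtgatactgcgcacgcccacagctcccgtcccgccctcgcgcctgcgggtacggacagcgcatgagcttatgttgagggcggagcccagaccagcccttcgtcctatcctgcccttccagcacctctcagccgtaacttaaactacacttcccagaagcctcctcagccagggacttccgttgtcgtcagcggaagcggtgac
PSMD7, chr16:74296564-74296813, plus strand: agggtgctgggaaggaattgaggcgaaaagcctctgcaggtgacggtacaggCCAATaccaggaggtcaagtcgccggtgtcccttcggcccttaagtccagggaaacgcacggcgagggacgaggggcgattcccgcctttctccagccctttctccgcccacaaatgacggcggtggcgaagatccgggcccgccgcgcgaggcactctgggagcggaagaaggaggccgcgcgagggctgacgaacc
PSMC6, chr14:52706950-52707199, plus strand: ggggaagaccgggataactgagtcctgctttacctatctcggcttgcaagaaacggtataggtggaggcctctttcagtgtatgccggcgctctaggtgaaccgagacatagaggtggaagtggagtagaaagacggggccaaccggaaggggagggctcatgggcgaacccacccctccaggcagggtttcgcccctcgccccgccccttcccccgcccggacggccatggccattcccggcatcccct
PSME4, chr2:53970994-53971243, minus strand: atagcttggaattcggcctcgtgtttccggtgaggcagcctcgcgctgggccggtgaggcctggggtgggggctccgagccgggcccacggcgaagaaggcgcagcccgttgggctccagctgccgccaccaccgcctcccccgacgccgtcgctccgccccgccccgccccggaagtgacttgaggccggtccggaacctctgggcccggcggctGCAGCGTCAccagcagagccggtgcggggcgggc
PSMD7 holds a CCAAT match and PSME4 a TGACNNNGC match, read on the other strand as GCAGCGTCA, while PSMC4 and PSMC6 hold neither in this window. TGACNNNGC was found before 11 of the 35 genes, 31.4%, against 13.2% of 27305 genes, and CCAAT before 16, 45.7%, against 37%. Of the genes with TGACNNNGC, PSMC5, PSMD9, PSME1 and PSME2 were higher at 16 h in both lines, and PSMD3 in RBE only. PSME4 was lower in both lines, and PSMD5, PSMG1 and PSMG2 in SNU1079 only. PSMA4 and PSMD12 were not called. The 4 sequences shown therefore do not represent how matches and directions go together. A match is a string of letters and not a measured site.

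The 6 ATPases form a single ring, yet in both lines at 16 h some rose and others fell. In RBE 4 were higher and 2 lower, and in SNU1079 3 were higher and 2 lower. Of all genes, 27.3% were higher and 26.6% lower in RBE, and 28.7% and 25.8% in SNU1079. Beside PSMC4 and PSMC5, PSMC3 rose by 0.62 on the log2 scale in RBE (adjusted p = 1.26e-05) and 0.42 in SNU1079 (adjusted p = 0.000877), but by -0.22 and -0.06 when held against the ribosomal protein genes. PSMC1 rose by 0.38 in RBE, also only on the scale as deposited (-0.45 against the ribosomal protein genes), and its SNU1079 value was 0.08, which did not pass. PSMC6 and PSMC2 fell.

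PSMC6 had 939.4, 1005 and 888.4 normalised counts in RBE after 16 h of YC-1, against 1583, 1429 and 1565 with DMSO. In SNU1079 it had 1220, 917.2 and 1093, against 1665, 2038 and 2193. All YC-1 libraries were below all DMSO libraries in both lines, and the folds were 0.619 (adjusted p = 0.000255) and 0.548 (adjusted p = 2.06e-05). PSMC2 had 2927, 2926 and 2646 normalised counts in RBE after 16 h of YC-1, against 4030, 3838 and 3876, and 2447, 2137 and 2106 in SNU1079, against 3761, 3882 and 3754. These groups did not overlap either, with log2 fold changes of -0.47 ± 0.08 (adjusted p = 5.47e-05) and -0.77 ± 0.08 (adjusted p = 8.88e-08). Both genes kept their calls in all 14 alternatives in both lines. At 6 h neither passed: PSMC6 was at -0.27 in RBE and -0.31 in SNU1079, and PSMC2 at -0.08 and -0.13.

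Among the 14 PSMD genes, 7 rose and 2 fell in RBE at 16 h, and 4 rose and 5 fell in SNU1079. The shares of all genes were 27.3% higher and 26.6% lower in RBE, and 28.7% and 25.8% in SNU1079. PSMD8, a lid subunit, had 5643, 5833 and 6155 normalised counts in RBE after 16 h of YC-1, against 2455, 2513 and 2626 with DMSO. In SNU1079 it had 3852, 2376 and 3999, against 2733, 2746 and 2307. The RBE groups were far apart, with a fold of 2.32 (adjusted p = 9.02e-07), while in SNU1079 a YC-1 library lay among the DMSO libraries and the log2 value of 0.36 did not pass. PSMD8 held against the ribosomal protein genes was still at 0.38 in RBE, without passing (adjusted p = 0.0789). PSMD4, the ubiquitin receptor, and PSMD2, the base scaffold that takes up shuttle proteins, rose in both lines, PSMD4 by 0.83 on the log2 scale in RBE and 0.59 in SNU1079 and PSMD2 by 0.78 and 0.55, although in RBE they came to 0.00 and -0.05 against the ribosomal protein genes. The base assembly chaperone PSMD9 rose by 0.67 in both lines and turned to -0.16 in RBE on that scale.

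PSMD1, the scaffold of the base and a neighbour of the ATPase ring, went the other way from PSMD2. It had 6286, 6429 and 5898 normalised counts in RBE after 16 h of YC-1, against 8958, 8240 and 8267 with DMSO, and 3354, 2544 and 2898 in SNU1079, against 4790, 5342 and 5460. The SNU1079 6 h libraries had 2710, 3412 and 3641 with YC-1, against 4388, 4555 and 4249. None of these groups overlapped. PSMD1 fell by 0.45 in RBE at 16 h (adjusted p = 0.000856), by 0.44 in SNU1079 at 6 h (adjusted p = 0.00236) and by 0.83 at 16 h (adjusted p = 7.66e-07), and its RBE 6 h value of -0.21 did not pass.

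PSMD11, the lid subunit that contacts the core, fell in both lines at 16 h, by 0.34 in RBE (adjusted p = 0.0135) and 0.33 in SNU1079, where the call ended without the 3 libraries that lay apart (-0.18, adjusted p = 0.2). The lid subunits PSMD6 and PSMD14 and the assembly chaperone PSMD5 fell in SNU1079 and were not called in RBE, PSMD6 falling by 0.70 (adjusted p = 0.000165). The lid subunits PSMD3 and PSMD13 rose in RBE, by 0.39 and 0.78, and were not called in SNU1079; in RBE they came to -0.45 and -0.05 against the ribosomal protein genes. PSMD10, the oncoprotein gankyrin, and PSMD12 were called in none of the 4 comparisons.

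In the core, 7 of 13 genes were called higher and 0 lower in RBE at 16 h. Of all genes tested there, 27.3% were higher and 26.6% lower. All 13 log2 fold changes were above 0, from 0.13 for PSMA3 to 1.12 for PSMA7. Held against the ribosomal protein genes none rose and 7 fell, where all genes split 1117 higher and 9572 lower. In SNU1079 3 rose and 4 fell, where 28.7% of all genes were higher and 25.8% lower. At 6 h limma called no core gene in RBE, with none at an unadjusted p under 0.05, and only PSMA3, lower, in SNU1079. Of all genes 24% were called in RBE at 6 h and 28.2% in SNU1079. PSMA7, an alpha subunit of the end ring, had 10220, 10550 and 10530 normalised counts in RBE after 16 h of YC-1, against 4674, 5340 and 4391 with DMSO, a fold of 2.18 (adjusted p = 1.25e-05). In SNU1079 it had 7807, 10870 and 5022, against 4446, 4645 and 4216, a fold of 1.7 (adjusted p = 0.000797). All YC-1 libraries were above all DMSO libraries; those of RBE lay close together and those of SNU1079 were widely spread. Against the ribosomal protein genes PSMA7 stood at 0.29 in both lines and passed in neither (adjusted p = 0.0501 in RBE and 0.0566 in SNU1079).

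The catalytic subunits did not move alike. PSMB6, the caspase-like protease, rose by 0.89 on the log2 scale in RBE at 16 h (adjusted p = 8.7e-06) and by 0.40 in SNU1079 (adjusted p = 0.0147), the SNU1079 value turning to -0.08 against the ribosomal protein genes. PSMB5, the chymotrypsin-like protease and the target of bortezomib, rose by 0.38 in RBE (-0.46 on that scale) and stood at -0.03 in SNU1079. PSMB7, the trypsin-like protease, was at 0.14 in RBE, not called, and fell by 0.21 in SNU1079 (adjusted p = 0.0466). Of the structural beta subunits PSMB4 rose in both lines, by 0.95 and 0.40, the SNU1079 value turning to -0.07 on the ribosomal scale.

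PSMB1, another structural beta subunit, is named here because its calls were opposite, and was chosen after its values were seen. It had 5429, 5715 and 5136 normalised counts in RBE after 16 h of YC-1, against 3772, 3758 and 3465 with DMSO, and 3665, 3764 and 2907 in SNU1079, against 4038, 4321 and 4145. The groups were apart in both lines, upwards in RBE (0.57 ± 0.10, adjusted p = 4.55e-05) and downwards in SNU1079 (-0.28 ± 0.10, adjusted p = 0.0174). The RBE value turned to -0.27 against the ribosomal protein genes, and the SNU1079 call ended without the 3 libraries that lay apart (-0.19, adjusted p = 0.0617).

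PSMA3 was lower with YC-1 in SNU1079. It had 2980, 4395 and 4824 normalised counts there after 6 h of YC-1, against 5200, 5157 and 5002 with DMSO, and 3922, 3160 and 4062 after 16 h, against 4201, 4866 and 4781. All YC-1 libraries were below all DMSO libraries, replicate 1 at 6 h by far. Its log2 fold change was -0.36 at 6 h (adjusted p = 0.0417), a call that ended without the libraries that lay apart (-0.15, adjusted p = 0.192), and -0.32 at 16 h. PSMA1 and PSMA6 rose in RBE at 16 h, by 0.68 and 0.71 (-0.16 and -0.13 against the ribosomal protein genes), and PSMA5 fell in SNU1079 by 0.33. PSMA2, PSMA4 and PSMB2 were called in none of the 4 comparisons.

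How far core and regulatory particle as wholes differed in their response depended on the measure, medians of genes or means per library. The median log2 fold change of the core minus that of the regulatory particle was -0.09 at 6 h and -0.01 at 16 h in RBE, and -0.01 at 6 h and -0.19 at 16 h in SNU1079. Within the regulatory particle the values at 16 h spanned -0.69 to 1.21 in RBE and -0.87 to 1.06 in SNU1079. Setting the core against the base alone (ATPases, PSMD1, PSMD2 and PSMD4) gave -0.24 in RBE and -0.45 in SNU1079 at 16 h. These medians are descriptions and have no test, since the genes of a complex are not replicates.

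Per library, the mean log2(normalised count + 1) of the 13 core genes was 12.50 ± 0.05 in RBE after 16 h of YC-1, against 11.98 ± 0.07 with DMSO (SD, n = 3 each), and 11.84 ± 0.18 in SNU1079, against 11.83 ± 0.09. That of the 20 regulatory genes was 12.08 ± 0.02 in RBE, against 11.74 ± 0.02, and 11.56 ± 0.02 in SNU1079, against 11.48 ± 0.05. RBE libraries were apart for both particles and SNU1079 libraries were not for the core; the levels depend on the scale as the counts do, the difference between particles does not. Core minus regulatory was 0.42 ± 0.03 in RBE after 16 h of YC-1, against 0.24 ± 0.09, and 0.28 ± 0.02 after 6 h, against 0.37 ± 0.04. The groups did not overlap at either time, and the direction was not the same at 6 h as at 16 h. The RBE DMSO groups did not overlap between times either, at 0.34 to 0.41 at 6 h and 0.14 to 0.30 at 16 h. The change of direction therefore holds a move of the vehicle as well as of YC-1. By medians of genes the RBE difference at 16 h was -0.01, so means and medians gave different answers there. In SNU1079 it was 0.36 ± 0.06 after 6 h of YC-1, against 0.36 ± 0.08, and at 16 h the 3 YC-1 libraries stood at 0.44, 0.28 and 0.12, either side of the DMSO libraries at 0.31, 0.37 and 0.36.

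**Figure D3:**
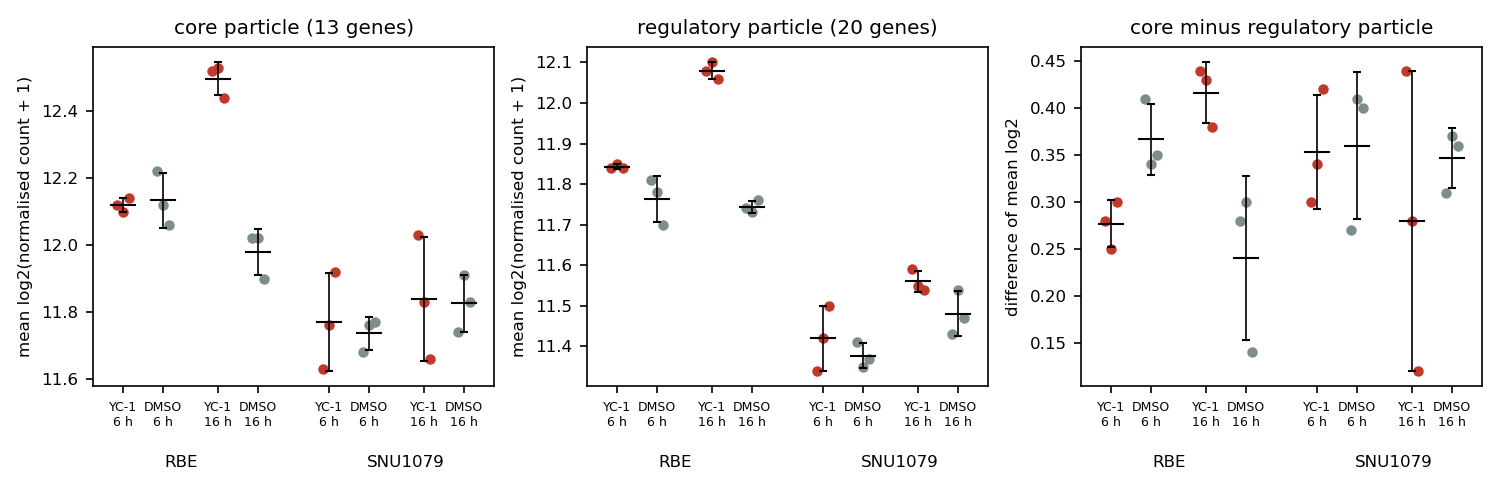
Mean log2(normalised count + 1) of the 13 core genes (left), of the 20 regulatory particle genes (middle) and their difference (right) in each library, YC-1 in red left of DMSO in grey; bars are means and whiskers SD of 3 libraries, and the y axes do not start at 0. Core means in RBE at 16 h were 12.50 with YC-1 and 11.98 with DMSO, while the difference between particles stayed between 0.12 and 0.44 in all 24 libraries; against the ribosomal protein genes the median core gene was at -0.46 in RBE at 16 h.

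The activators split by family. The paired subunits of PA28, PSME1 and PSME2, and PA28 gamma, PSME3, rose at 16 h in both lines while PSME4 fell, on the scale as deposited; against the ribosomal protein genes 1 activator was called higher and 1 lower in each line. PSME2 had 3546, 3701 and 3386 normalised counts in RBE after 16 h of YC-1, against 1554, 1492 and 1320 with DMSO, and 4595, 5287 and 2793 in SNU1079, against 2270, 2446 and 2068. The groups did not overlap, although SNU1079 replicate 3 was well below the other two; the folds were 2.44 (adjusted p = 5.57e-07) and 1.81 (adjusted p = 9.21e-05), and the calls held in all 14 alternatives. PSME1 had 3630, 3798 and 3404 in RBE after 16 h of YC-1, against 2179, 2277 and 2098, and 7387, 7935 and 5639 in SNU1079, against 5046, 4830 and 4301. Its log2 fold changes were 0.72 (-0.11 against the ribosomal protein genes) and 0.55, with no overlap between groups.

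PSME3, a nuclear activator, was called at 6 h in RBE as well. It had 6302, 6055 and 6078 normalised counts there after 6 h of YC-1, against 4880, 5160 and 4870 with DMSO, and 8101, 8530 and 7963 after 16 h, against 4856, 4793 and 5178. SNU1079 had 5452, 5978 and 6087 after 6 h, against 6148, 6047 and 6199, and 7035, 7814 and 6482 after 16 h, against 5884, 5163 and 5926. The RBE groups were apart at both times (0.31 and 0.73, adjusted p = 0.00593 and 1.05e-07), and those of SNU1079 at 16 h only (0.33, adjusted p = 0.0013). At 16 h the direction turned against the ribosomal protein genes in both lines (-0.11 and -0.15), and with equal sums in SNU1079 (-0.03).

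Of the 4 core assembly chaperones, 3 fell in SNU1079 at 16 h, by more than any other member but PSME4, and none of these 3 passed in RBE. PSMG1 and PSMG2 pair to seed the alpha ring, and PSMG3 and PSMG4 form a second pair that acts with them. PSMG2 had 373.5, 160.8 and 343.6 normalised counts in SNU1079 after 16 h of YC-1, against 746.3, 911.7 and 813.4 with DMSO, and 857.4, 857.5 and 780.6 in RBE, against 1085, 1155 and 997.1. The groups were apart in both lines, by a log2 fold change of -1.58 ± 0.22 in SNU1079 (adjusted p = 3.17e-06) and -0.37 in RBE, which did not pass. PSMG1 had 524.9, 358 and 441.9 in SNU1079, against 683.3, 1170 and 1021, and 806.5, 796.4 and 772.7 in RBE, against 925.4, 908.3 and 890.8. It fell by 1.10 in SNU1079 (adjusted p = 4.02e-05) and stood at -0.20 in RBE.

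PSMG4 had 151.9, 160.9 and 178.5 normalised counts in SNU1079 after 16 h of YC-1, against 437.6, 354.6 and 325.9 with DMSO. At 6 h it had 218.2, 187 and 244.8, against 337.3, 425.5 and 399.3. The YC-1 libraries lay below the DMSO libraries at both times, with folds of 0.443 (adjusted p = 5.09e-06) and 0.56 (adjusted p = 0.000665). RBE had 314.5, 293 and 344.6 after 16 h of YC-1, against 265.8, 277.1 and 215.1, with a log2 value of 0.33 that did not pass. Its pair partner PSMG3 rose, by 0.98 in RBE (adjusted p = 0.0017) and 0.62 in SNU1079 (adjusted p = 0.0341), but stood at 0.15 in both lines against the ribosomal protein genes and passed in neither. Reads of PSMG3 and of its antisense gene PSMG3-AS1, whose mean was 19.5% of that of PSMG3, were separated only as far as the authors' counting used strand, which is not given in the sources used here; the same holds for PSMD5-AS1 (23%) and PSMA3-AS1 (13.2%). The processed copy PSMC1P1 had 7.74% of the mean of PSMC1, so the PSMC1 value is uncertain by reads the copy may share.

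Many SNU1079 calls at 16 h rest on single libraries. Of the 29, 11 ended when at least 1 of the 6 libraries compared was left out. PSMB4 lost its call without YC-1 replicate 1, PSMB1 without YC-1 replicate 3 or DMSO replicate 2, and PSMD9 without YC-1 replicate 2 or DMSO replicate 3. PSMA3 lost it without YC-1 replicate 2 or DMSO replicate 2 or 3, PSMA5 without YC-1 replicate 2 or 3 or DMSO replicate 2, and PSMB6 and PSMG3 without YC-1 replicate 1 or 2 or DMSO replicate 3. PSMB7, PSMD5, PSMD11 and PSMD14 lost it without any of 4 of the 6 libraries. At 6 h PSMC4 in SNU1079 lost its call without YC-1 replicate 1 or DMSO replicate 1 or 2, and PSMA3 without YC-1 replicate 1 or any DMSO replicate. In RBE at 6 h PSMD7 lost its call without YC-1 replicate 2 or DMSO replicate 3. Of the 6 RBE calls at that time, 2 ended in each of these cases. Another case was YC-1 replicate 1 left out, where 1 ended, and DMSO replicate 1 likewise. In RBE at 16 h no call ended this way. Against the ribosomal protein genes the 6 h calls of PSMC5 and PSMD7 ended in both lines, those of PSMC3 and PSME3 in RBE, and that of PSMC4 in SNU1079 (0.10, adjusted p = 0.547).

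The response at 16 h was lower in SNU1079 for most members on the scale as deposited, and for about as many as not against the ribosomal protein genes. The YC-1 effect in SNU1079 minus that in RBE, tested as a difference, was called for 12 of 41 at 16 h, all lower in SNU1079, where 14.6% of all genes were called, 8.17% higher and 6.43% lower. At 6 h limma called none, where 1.54% of all genes were called; 2 members, PSME3 and PSMG4, had an unadjusted p under 0.05. At 16 h 37 of 41 members had the lower log2 fold change in SNU1079, and the median difference was -0.36, against 0.05 for all genes. Against the ribosomal protein genes these became 21 of 41 and a median of 0.00, against 0.40 for all genes, while the other 3 scales tried gave 39 of 41 and medians of -0.41 to -0.40. The chaperones led, with PSMG4 at -1.51 ± 0.24 (adjusted p = 0.000233), PSMG2 at -1.20 ± 0.31 (adjusted p = 0.011) and PSMG1 at -0.90 ± 0.26 (adjusted p = 0.0244). Next came PSMB1 and PSMD8, each at -0.85, with adjusted p of 0.000291 and 0.0101. Held against the ribosomal protein genes only 2 of the 12 differences were called, and the count was 6 without RBE YC-1 16 h replicate 1, RBE DMSO 16 h replicate 3 or SNU1079 DMSO 16 h replicate 2. The call for PSMG1 ended without any of these and also without SNU1079 YC-1 16 h replicate 2 or SNU1079 DMSO 16 h replicate 3, its value staying between -0.89 and -0.74.

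Despite that offset the order of the genes was alike in both lines. Across the 41 members the log2 fold changes in SNU1079 and RBE had a Spearman rho of 0.88 at 16 h and 0.78 at 6 h, and 30 and 35 of the 41 had the same sign. The points share their libraries and their gene properties, so this is a description. At 16 h, 14 members were called higher in both lines and 5 lower in both (PSMC2, PSMC6, PSMD1, PSMD11 and PSME4). The correlations, shared signs and shared calls were not computed over all genes tested. They therefore cannot show whether the likeness of the lines is particular to the proteasome genes.

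**Figure D4:**
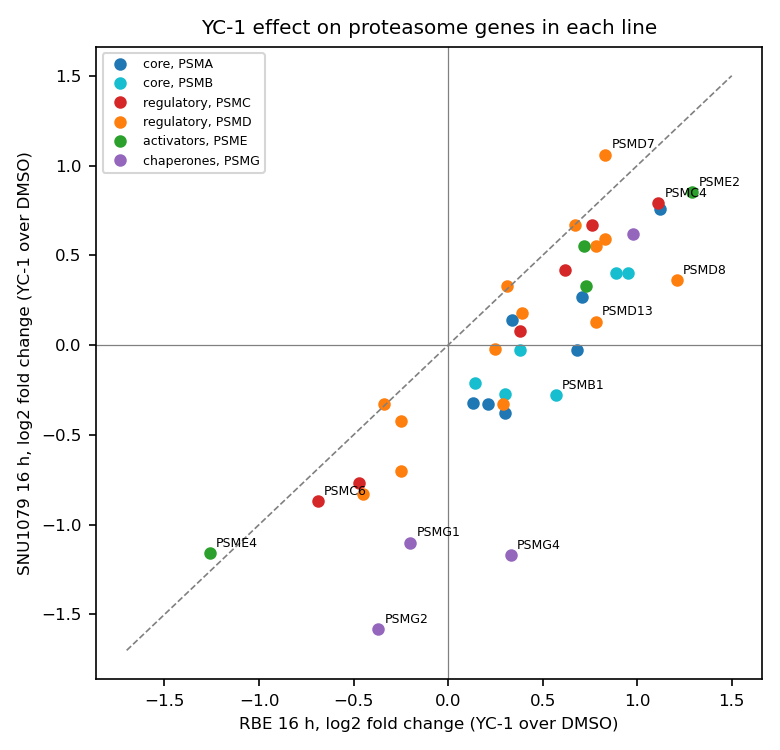
Log2 fold change at 16 h, YC-1 over DMSO, of each of the 41 genes in SNU1079 (y axis) against RBE (x axis), coloured by gene family; the dashed line marks equal effects. Of the 41 points 37 lie below the line, the chaperones PSMG4, PSMG2 and PSMG1 farthest; scaling by the ribosomal protein genes shifts all points left by more than down, and 21 of the 41 then lie below the line.

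Most of the response in RBE arose between 6 h and 16 h. In RBE the YC-1 effect at 16 h minus that at 6 h was called higher for 17 members and lower for 1, PSMC2. Of all genes 18.2% were called, 8.8% higher and 9.43% lower. Held against the ribosomal protein genes no member was higher and 15 were lower, where all genes split 135 higher and 7303 lower. With equal sums 4 members were higher and 4 lower, where all genes split 560 and 3446. PSME2 led with 1.11 ± 0.22 (adjusted p = 0.00141), with PSMA7 at 1.0 ± 0.24 (adjusted p = 0.00672) and PSMD8 at 0.87 ± 0.21 (adjusted p = 0.00743); against the ribosomal protein genes PSMA7 and PSMD8 were at 0.20 and 0.07 and no longer passed. In SNU1079 6 members were higher and 2 lower, where 17% of all genes were called, 8.47% higher and 8.53% lower. Under equal sums no member was higher and 13 were lower there, where all genes split 488 higher and 3241 lower. On the scale as deposited PSMG2 had the largest difference of the 8 in SNU1079, at -1.30 ± 0.31 (adjusted p = 0.00638). Next came PSMC2 at -0.64 ± 0.11 (adjusted p = 0.00076) and PSME1 at 0.50 ± 0.15 (adjusted p = 0.0265). The SNU1079 count rests on few libraries: it was 25 without the 3 that lay apart, 16 without YC-1 6 h replicate 1, 13 without YC-1 16 h replicate 3 or DMSO 16 h replicate 1, and 5 without DMSO 6 h replicate 3 or DMSO 16 h replicate 3.

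In the vehicle groups the members hardly differed between times, though in SNU1079 this depended on the libraries in the fit. For DMSO at 16 h against 6 h limma called no member in either line, where 0.0448% of all genes were called in RBE and 8.57% in SNU1079. At an unadjusted p under 0.05 there was 1 member in RBE, PSMG4, and there were 4 in SNU1079, PSMC2, PSMC5, PSMD1 and PSMD2, at 0.18 to 0.24 on the log2 scale. Without the 3 libraries that lay apart, 8 members were called in SNU1079.

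Without YC-1, the lines expressed the proteasome genes at different levels. Among DMSO libraries at 6 h, 8 members were higher in SNU1079 than in RBE and 22 lower, where 56.4% of all genes were called, 27.2% higher and 29.2% lower, and at 16 h 12 were higher and 14 lower, where 55.1% were called, 25.9% higher and 29.3% lower. PSMA3 was the most raised in SNU1079, with 5200, 5157 and 5002 normalised counts at 6 h, against 1731, 1684 and 1605 in RBE, a log2 difference of 1.61, and 1.52 at 16 h. PSMA4, of the same ring, was the lowest relative to RBE at 6 h, with 2276, 2268 and 1975 in SNU1079, against 6488, 6320 and 5513 in RBE, a log2 difference of -1.49, and -1.27 at 16 h, where PSMD5 was lower still at -1.30. The groups of these 2 genes lay far apart. PSME1 was higher in SNU1079, by 1.0 and 1.11, and PSMD5, PSMA1 and PSMC3 were lower, at -1.47, -1.30 and -1.14 at 6 h.

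Levels of different genes can be set side by side only per length. In RBE with DMSO at 16 h, the mean normalised count per kb of the principal GENCODE 29 transcript was 5943 for PSMB4, 5612 for PSMB7 and 4821 for PSMA7 in the core, and 4255 for PSMD2 and 3295 for PSMC5 in the regulatory particle. The ATPases PSMC6 and PSMC4, which stand in equal number in the ring, had 431.5 and 3237 per kb in RBE after 16 h of YC-1, against 697.3 and 1498 with DMSO. In SNU1079 the same genes had 492 and 3247 per kb after 16 h of YC-1, against 898.3 and 1883 with DMSO. The activator PSME4 had 180.5 per kb in RBE after 16 h of YC-1, against 433.7, while PSME3 had 8215, against 4952. Lengths come from a single transcript a gene, so these levels are approximate.

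Longer members tended to have the lower log2 fold change. Gene span (start to end in GENCODE 29, GRCh38) and log2 fold change had a Spearman rho of -0.64 across the 41 members at 16 h in both lines, against -0.49 in RBE and -0.40 in SNU1079 across 13882 protein-coding genes tested; at 6 h it was -0.46 in RBE and -0.62 in SNU1079, against -0.42 and -0.37. The points share libraries, and this is a description. Of the 12 members under 10 kb, 10 were called higher and 0 lower in RBE at 16 h (median 0.86), and 9 rose and 1 fell in SNU1079 (median 0.48). Of the 19 from 10 to 30 kb, 10 rose and 2 fell in RBE (median 0.38), and 5 rose and 7 fell in SNU1079 (median 0.08). Of the 10 over 30 kb, 2 rose and 3 fell in RBE (median 0.21), and none rose and 7 fell in SNU1079 (median -0.33). A shared scale moves these medians together and not their order. Calls by span were not counted for other genes, so the members cannot be set against genes of like span.

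Single genes show the pattern and its exceptions. PSMC5 (chromosome 17, 63827152 to 63832026) and PSMD7 (chromosome 16, 74296775 to 74306288) are under 10 kb and rose throughout, and PSME4 (chromosome 2, 53864067 to 53970840) spans 107 kb and PSMG2 (chromosome 18, 12658043 to 12725740) 67.7 kb. PSMA1 spans 139 kb and yet rose by 0.68 in RBE at 16 h, though not against the ribosomal protein genes (-0.16). PSMC6 (chromosome 14, 52707172 to 52728587) and PSMC4 (chromosome 19, 39971005 to 39981441) span 21.4 and 10.4 kb and moved opposite ways, and PSMG1, at 9.08 kb, fell in SNU1079. Transcript length was less closely related, with rho of -0.44 in RBE and -0.23 in SNU1079 at 16 h.

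**Figure D5:**
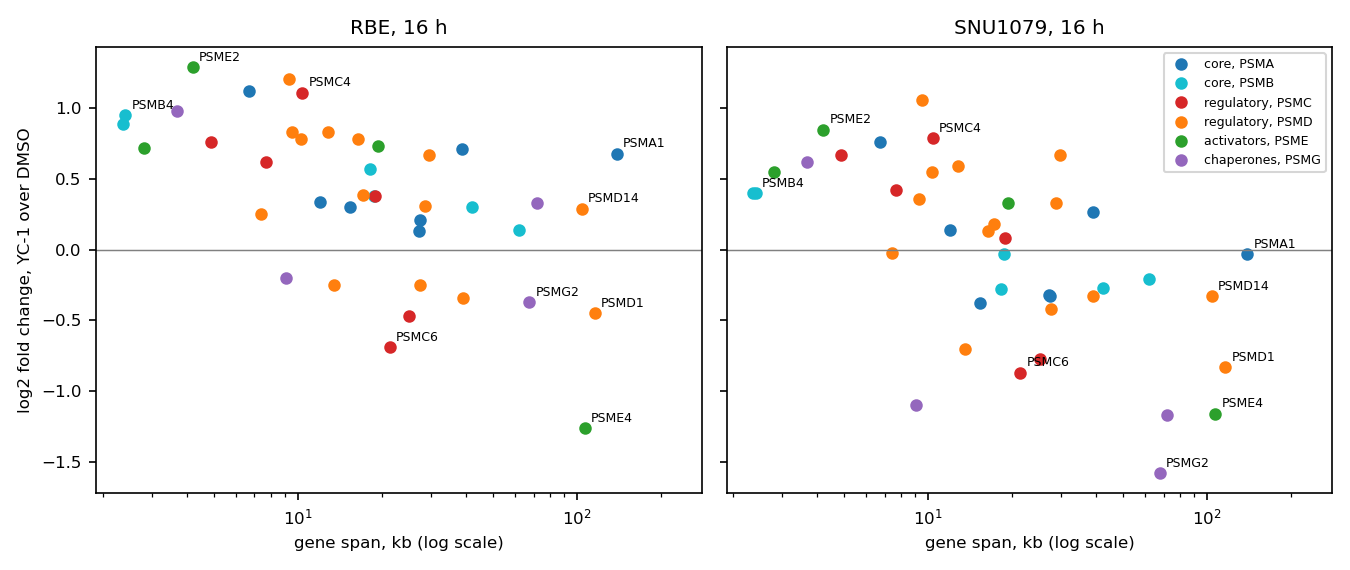
Log2 fold change at 16 h, YC-1 over DMSO (y axis), of each of the 41 genes against its span in kb (x axis, log scale), in RBE (left) and SNU1079 (right), coloured by gene family. Points fall from left to right in both lines (rho -0.64 in each), with PSMA1, at 139 kb and 0.68 in RBE, as an exception; scaling by the ribosomal protein genes would lower all points of a panel alike and put PSMA1 at -0.16.

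The known regulators of proteasome genes moved in part, and all the lists that follow depend on the scale. Against the ribosomal protein genes, the regulators split into 0 higher and 8 lower in RBE at 16 h and 1 and 6 in SNU1079. The accessory proteins split into 1 and 9, and 3 and 6, where all genes split 1117 and 9572, and 2397 and 6929. On the scale as deposited, of 12 regulators tested, 4 rose and 2 fell in RBE at 6 h, and 4 rose and 3 fell at 16 h. In SNU1079 2 rose and 1 fell at 6 h, and 5 rose and 3 fell at 16 h. Of all genes on that scale, 11.6% rose and 12.4% fell in RBE at 6 h, and 27.3% and 26.6% at 16 h. The shares in SNU1079 were 14% and 14.2% at 6 h, and 28.7% and 25.8% at 16 h. NFE2L1, the factor that raises subunit transcription when the proteasome is impaired, had 9575, 10820 and 10240 normalised counts in RBE after 16 h of YC-1, against 6089, 5334 and 7823 with DMSO, and 16610, 23330 and 32130 in SNU1079, against 9475, 8695 and 8875. YC-1 libraries were above DMSO libraries in both lines, by 0.69 (adjusted p = 0.0018; -0.15 against the ribosomal protein genes) and 1.36 on the log2 scale (adjusted p = 8.79e-07). At 6 h it rose in RBE by 0.65 (adjusted p = 0.00691) and stood at 0.44 in SNU1079 (adjusted p = 0.0613). DDI2, the protease that cuts NFE2L1 free, rose by 0.75 and 0.70 in RBE at 6 h and 16 h and by 0.89 in SNU1079 at 16 h, with -0.14 against the ribosomal protein genes in RBE at 16 h. NGLY1, which deglycosylates NFE2L1, fell in RBE, by 0.47 and 0.41.

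The stress factor NFE2L2 rose at 6 h, by 0.59 in RBE (adjusted p = 0.00189) and 0.67 in SNU1079 (adjusted p = 0.000513), and stood at -0.12 and -0.09 at 16 h. AKIRIN2, which brings proteasomes into the nucleus, rose in SNU1079 by 0.69 at 6 h and fell by 0.54 at 16 h. HSF1, the heat shock factor, rose at 16 h, by 0.86 and 0.73, whereas HSF2 was lower at -1.42 and -1.07, and SEL1L, of the endoplasmic reticulum degradation pathway, at -0.97 and -0.67, in RBE and SNU1079.

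Proteins that work on the proteasome outside its named subunits were as divided. Of 13 tested, 5 rose and 5 fell in RBE at 16 h, 3 rose and 3 fell in SNU1079, and 2 rose and 1 fell at 6 h in each line. ZFAND2A, induced by arsenite and heat and bound to the regulatory particle, rose in all 4 comparisons, with 1261, 1273 and 1261 normalised counts in RBE after 16 h of YC-1, against 491.5, 467.8 and 474.6, and 1149, 1239 and 1135 in SNU1079, against 327.5, 393.1 and 422.7. The groups lay far apart, at 1.40 and 1.63 on the log2 scale (adjusted p = 4.76e-10 and 6.45e-11). The ubiquitin receptor ADRM1 rose by 1.27 and 1.70 and the inhibitor PSMF1 by 0.74 and 1.32, the RBE value of PSMF1 turning to -0.09 against the ribosomal protein genes. POMP, the maturation factor of the core, rose in RBE by 0.64 (-0.20 on that scale) and stood at 0.11 in SNU1079. PAAF1, which holds ATPases apart from the core, fell by 0.79 and 0.53, and the ubiquitin ligase TRIP12 fell by 1.11 in RBE.

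Of the 3 immunoproteasome genes tested, PSMB8 and PSMB9 rose in RBE at 16 h, by 0.73 and 0.71 (-0.10 and -0.12 against the ribosomal protein genes), PSMB10 passed in none of the 4 comparisons of YC-1 with DMSO, and the other 3 of these called none of the 3 genes. Among DMSO libraries all 3 were higher in SNU1079 than in RBE, by 2.27 for PSMB8, 3.70 for PSMB9 and 1.10 for PSMB10 at 6 h. At 16 h the main ubiquitin-activating enzyme UBA1 rose by 0.88 in RBE and 0.95 in SNU1079, while UBA6, the alternative enzyme, fell by 1.27 and 0.88.

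Of 13 shuttle and segregase genes, 5 rose and 4 fell in RBE at 16 h and 7 rose and 3 fell in SNU1079, with 2 falling at 6 h in RBE and 2 rising and 3 falling in SNU1079. VCP, the segregase that pulls ubiquitinated proteins out of complexes, and its partner FAF1 fell in all 4 comparisons. In the order RBE 6 h, RBE 16 h, SNU1079 6 h and SNU1079 16 h, the log2 fold change was -0.37, -0.46, -0.31 and -0.44 for VCP and -0.39, -0.60, -0.53 and -1.42 for FAF1. The autophagy receptor SQSTM1 rose by 0.80 in RBE (-0.03 against the ribosomal protein genes) and 1.55 in SNU1079 at 16 h. Of 6 other degradation chaperones, 3 rose and 3 fell in RBE at 16 h and 3 rose and 1 fell in SNU1079, with 3 falling at 6 h in RBE, and 1 rising and 2 falling in SNU1079. Against the ribosomal protein genes these split 0 higher and 4 lower in RBE at 16 h, and 2 and 1 in SNU1079. HSPA1A and HSPA1B, the inducible HSP70 genes, fell in RBE at 6 h and 16 h, HSPA1A to -1.42 and -0.96 and HSPA1B to -1.43 and -1.24; their copies are nearly identical, so reads may be split between them.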

How the data were processed

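The authors deposited one table of normalised read counts per gene (a signal: scaled between libraries, with sums that differ), made with STAR and DESeq2 on hg38 per the submitters' processing notes. Per the labels' protocols, RNA was prepared with RNeasy Plus and sequenced as TruSeq Stranded mRNA libraries. How reads were counted, with which strand setting and annotation, is not given in the sources used here, and whole reads could not be recovered, so the depth is unknown. Normalised counts were tested as log2(value + 1) with limma 3.58.1 in R 4.3.3: 8 group means over all 24 libraries, an intensity trend, 16 residual degrees of freedom, and Benjamini-Hochberg adjustment over the 17860 genes with at least 10 in at least 3 libraries. Adjusted p under 0.05 is a call. An exact test of 3 against 3 cannot go below 0.1. The p-values measure the spread between libraries the labels call biological replicates.

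Members, gene lists, tests and alternatives were chosen with earlier results of these data known. The comparison of the lines' DMSO levels, the regulatory particle without PSMD5, PSMD9 and PSMD10, and the second way of leaving out 3 libraries were added after seeing the data. Named in the text were the 4 highest and 4 lowest called members of each YC-1 comparison, members called the same way in all 4, up to 3 for each tested difference between lines or times, and up to 4 called genes of each pathway list together with NFE2L1, NFE2L2, DDI2, NGLY1, POMP and AKIRIN2; 1 of the pathway lists is not reported here as a whole, and other members were named after their values were seen. Coordinates are those of GENCODE 29 on GRCh38. On data simulated for RBE at 6 h over 15614 genes, the script recovered 50% of the genes changed by 1 on the log2 scale and 22% of those changed by 0.5, with 5.26% of its calls false. Python 3.11.15 and matplotlib 3.10.9 made the figures.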

Additional observations from a re-analysis of the deposited data

Results flagged for a closer look

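By 6 h or 16 h, or by line, YC-1 acted to a different extent on the following genes, by a limma test of the difference itself; no explanation was tested. In RBE, the log2 effect at 16 h exceeded that at 6 h by 1.11 for PSME2, 1.0 for PSMA7, 0.87 for PSMD8, 0.82 for PSMB6 and PSME1, 0.78 for PSMB4, 0.69 for PSMA6 and PSMD13, 0.67 for PSMC4 and 0.62 for PSMD2. Smaller differences were 0.58 for PSMD4, 0.57 for PSMD10, 0.53 for PSMB1, 0.50 for PSMD7, 0.49 for PSMB5, 0.45 for PSMC5 and 0.42 for PSME3, and PSMC2 was at -0.39. The PSMD4 call (adjusted p = 0.0498) ended whichever of the 12 RBE libraries was left out. That of PSMB5 ended in 10 of these 12 cases, that of PSMD10 in 9 and that of PSMC2 in 2, and the other 14 calls held in all 12. Held against the ribosomal protein genes, 12 of these 18 changed sign.

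In SNU1079 the same difference was -1.30 for PSMG2, -0.64 for PSMC2, 0.50 for PSME1, 0.49 for PSMC4, 0.48 for PSMD2, 0.44 for PSMD7, 0.40 for PSME3 and 0.38 for PSMC5. The call for PSMD7 ended without the 3 libraries that lay apart (0.23, adjusted p = 0.179).

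At 16 h the effect in SNU1079 minus that in RBE was -1.51 for PSMG4, -1.20 for PSMG2, -0.90 for PSMG1, -0.85 for PSMB1 and PSMD8, -0.71 for PSMA1, -0.65 for PSMD13, -0.62 for PSMD14, -0.57 for PSMB2, -0.55 for PSMB4, -0.54 for PSMA5 and -0.40 for PSME3. The differences for PSMG4 and PSMB1 were called in all 11 alternatives to the processing.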

How the results depend on the processing

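Scaling changed the sign of many calls in RBE at 16 h and of few in SNU1079. On the scale of the ribosomal protein genes 15 of 27 calls changed sign in RBE and 4 of 29 in SNU1079. Equal upper quartiles and equal sums without mitochondrial transcripts changed the sign of none. Held against the ribosomal protein genes, RBE at 16 h gave PSMA1 -0.16, PSMA6 -0.13, PSMB1 -0.27, PSMB5 -0.46, PSMC1 -0.45, PSMC3 -0.22, PSMC5 -0.08, PSMD13 -0.05, PSMD2 -0.05, PSMD3 -0.45, PSMD4 0.00, PSMD7 0.00, PSMD9 -0.16, PSME1 -0.11 and PSME3 -0.11. SNU1079 at 16 h gave PSMB4 -0.07, PSMB6 -0.08, PSMC3 -0.06 and PSME3 -0.15, and PSME3 was at -0.03 with equal sums. The RBE difference between 16 h and 6 h came to PSMA6 -0.11, PSMB1 -0.28, PSMB4 -0.02, PSMB5 -0.31, PSMC4 -0.13, PSMC5 -0.35, PSMD10 -0.24, PSMD13 -0.11, PSMD2 -0.18, PSMD4 -0.23, PSMD7 -0.31 and PSME3 -0.38. For SNU1079 against RBE in DMSO at 16 h PSME3 came to -0.09. The members called were then 2 in RBE at 6 h and 2 for the line difference at 16 h. With equal sums, 8 members were called for the RBE time difference and 13 for that of SNU1079; without mitochondrial transcripts in the sums, 1 for the line difference at 6 h and 1 for SNU1079 DMSO at 16 h against 6 h, as with equal upper quartiles.

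The libraries in the fit also matter; the cause was not tested. With only the 12 libraries of a line, 17 members were called in RBE at 6 h, 4 and 18 in SNU1079 at 6 h and 16 h, 32 for the RBE time difference and 1 for that of SNU1079. With only the 6 libraries compared, 13 were called in RBE at 6 h and 15 in SNU1079 at 16 h. With the times pooled, 23 were called in RBE and 19 in SNU1079, and core minus regulatory was -0.09 in RBE and -0.11 in SNU1079. Without the 3 libraries that lay apart, counted with replicate 3 or replicate 2 of SNU1079 YC-1 at 16 h, 13 or 14 were called in RBE at 6 h, 25 or 18 for the SNU1079 time difference, 1 or 1 and 18 or 24 for the line differences at 6 h and 16 h, and 8 or 8 for SNU1079 DMSO; core minus regulatory in SNU1079 at 16 h was -0.31 with replicate 3 left out. Against the base alone it was -0.14 and -0.24 in RBE at 6 h and 16 h and -0.09 and -0.45 in SNU1079, and without PSMD5, PSMD9 and PSMD10 -0.14 in RBE at 6 h.

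Leaving out each library in turn gave 4 to 8 calls in RBE at 6 h, 27 to 32 at 16 h, 5 to 10 in SNU1079 at 6 h and 23 to 33 at 16 h. The range was 15 to 20 for the RBE time difference, 5 to 16 for that of SNU1079, 0 to 1 and 6 to 18 for the line differences at 6 h and 16 h, 0 to 0 and 0 to 1 for DMSO times in RBE and SNU1079, and 23 to 31 and 22 to 28 for the DMSO lines at 6 h and 16 h. Core minus regulatory ran from -0.13 to -0.09 and -0.08 to 0.03 in RBE, and from -0.06 to 0.05 and -0.36 to -0.17 in SNU1079. Replicate numbers did not pair the samples: across 18 pairs the correlation of deviations was -0.15 to 0.19, and with the replicate number as a block 6, 27, 6 and 29 members were called in RBE at 6 h and 16 h and SNU1079 at 6 h and 16 h, and 16, 8, 0 and 12 for the time differences in RBE and SNU1079 and the line differences at 6 h and 16 h.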
